A study of Mus musculus with 4 samples.

Results

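The 6 genes Spp1, Tnc, Postn, Fn1, Thbs1 and Sparc, which encode matricellular and related matrix proteins, were taken by their symbols from the 19465 genes of a spatial transcriptome of mouse breast cancer and its lung metastases. The samples were 4 sections, 1 of the primary tumour and 1 of the lung from each of 2 BALB/c mice, called Mouse_627 and Mouse_628 as in the labels. Each mouse had received 100000 4T1 cells in the mammary fat pad at 8 weeks of age and was sacrificed at day 28. Both tissues of a mouse therefore carried the same cell line, a murine breast carcinoma line known to metastasise to lung, and no section of an animal without tumour cells was compared. In 10x Visium for fixed and paraffin-embedded tissue, RNA is read through probe pairs that bind each transcript, which a grid of barcoded spots takes up and unique molecular identifiers (UMIs) count. A spot can hold several cells of different types, so levels are those of small regions and not of cells.

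Matricellular proteins are secreted into the extracellular matrix, where they bind cell surface receptors, growth factors and structural fibres and alter how cells attach and signal. They are low in most resting adult tissues and rise in wounds, fibrosis and tumours, in which carcinoma cells, fibroblasts and macrophages are known sources. Spp1 encodes osteopontin, a ligand of integrins and CD44. Tnc encodes tenascin-C, Postn encodes periostin, Fn1 encodes fibronectin, the adhesive scaffold on which both assemble, Thbs1 encodes thrombospondin-1, a ligand of CD36 and CD47 that activates latent TGF-beta, and Sparc encodes a collagen-binding protein also called osteonectin. In GRCm38 the genes lie on different chromosomes, Spp1 (ENSMUSG00000029304) at chr5:104435118-104441050, Tnc (ENSMUSG00000028364) at chr4:63959785-64047015, Postn (ENSMUSG00000027750) at chr3:54361109-54391037, Fn1 (ENSMUSG00000026193) at chr1:71585520-71653200, Thbs1 (ENSMUSG00000040152) at chr2:118111876-118127133 and Sparc (ENSMUSG00000018593) at chr11:55394500-55423183.

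After spots with 200 genes or fewer were set aside, 9339 of 9445 spots remained, and the sections held between 10890154 and 30240176 UMIs. The median depth of a spot ranged from 1820 UMIs in the primary tumour of Mouse_628 to 9174.5 UMIs in the lung of Mouse_628. Levels are UMIs scaled to the total of the section or of the spots summed (CPM), and because each gene has its own probes they are compared between sections and not between genes. All 6 alveolar markers used here were found in both lungs, and Sftpc, the surfactant gene of alveolar type 2 cells, stood at 9985 and 5766 CPM in the lungs against 0.296 and 7.44 CPM in the primary tumours. The 5 carcinoma markers (Hmga2, Csf3, Plau, Fosl1 and Pthlh) summed to 1579 and 1679 CPM in the primary tumours, and to 70.4 CPM in the lung of Mouse_627 and 696 CPM in the lung of Mouse_628. Plau made up 34.3 and 304 CPM of these lung sums, against 304 and 243 CPM in the tumours. Hmga2 was at 14.2 and 93.7 CPM in the lungs against 324 and 343 CPM in the tumours. Csf3, Fosl1 and Pthlh were also lower in both lungs than in both tumours, so the markers did not move alike. The 1178 olfactory and vomeronasal receptor genes, which neither tissue is known to use, averaged 7.86 CPM per gene in the primary tumour of Mouse_628 and at most 0.737 CPM in the other sections, and this level is set beside the low values of Postn.

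Spp1 was the member that differed most between the tissues. It reached 2846 CPM in the primary tumour of Mouse_627 and 3950 CPM in the primary tumour of Mouse_628, against 91.1 CPM in the lung of Mouse_627 and 658 CPM in the lung of Mouse_628. Both tumours lay above both lungs, with a mean of 3398 ± 781 CPM in the tumours and 375 ± 401 CPM in the lungs (SD, n = 2 sections each). The tumour exceeded the lung of the same animal 31.3-fold in Mouse_627 (95% counting interval 29.4 to 33.3) and 6.004-fold in Mouse_628 (5.90 to 6.11), where the intervals cover counting error only.

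Tnc stood at 354 CPM and 144 CPM in the primary tumours of Mouse_627 and Mouse_628, and at 22.4 CPM and 132.3 CPM in the lungs of Mouse_627 and Mouse_628. The 2 tissues of Mouse_627 were 15.8-fold apart, whereas those of Mouse_628 were 1.09-fold apart, a smaller gap than that between the tumours, which differed 2.45-fold. Postn had the opposite order, with 20.2 and 24.2 CPM in the tumours and 74.2 and 35.8 CPM in the lungs of Mouse_627 and Mouse_628. The lung exceeded the tumour 3.68-fold in Mouse_627 and 1.48-fold in Mouse_628, and both lungs lay above both tumours. The 24.2 CPM of the primary tumour of Mouse_628 stands beside 7.86 CPM per receptor gene there, so part of those UMIs can be background.

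Fn1 was at 2350 and 1894 CPM in the tumours and at 581 and 1158 CPM in the lungs of Mouse_627 and Mouse_628, with both tumours above both lungs. Thbs1 was at 683 and 541 CPM in the tumours and at 240 and 498 CPM in the lungs. Sparc took opposite directions in the mice, with 585 CPM in the tumour and 465 CPM in the lung of Mouse_627 and with 398 and 745 CPM in Mouse_628. Of the 6 members, Spp1, Postn and Fn1 thus kept the order of tissues in every pair of sections. Tnc and Thbs1 kept it as well, but their values in Mouse_628 were 1.09-fold apart. For 2 sections in each group an exact permutation test gives no p below 0.3333. How many of all genes kept such an order was not counted, so it cannot be read as particular to the members. The lung of Mouse_627, the section with the fewest carcinoma marker UMIs, had the lowest level of Spp1, Tnc, Fn1 and Thbs1 of all 4 sections.

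**Figure D1:**
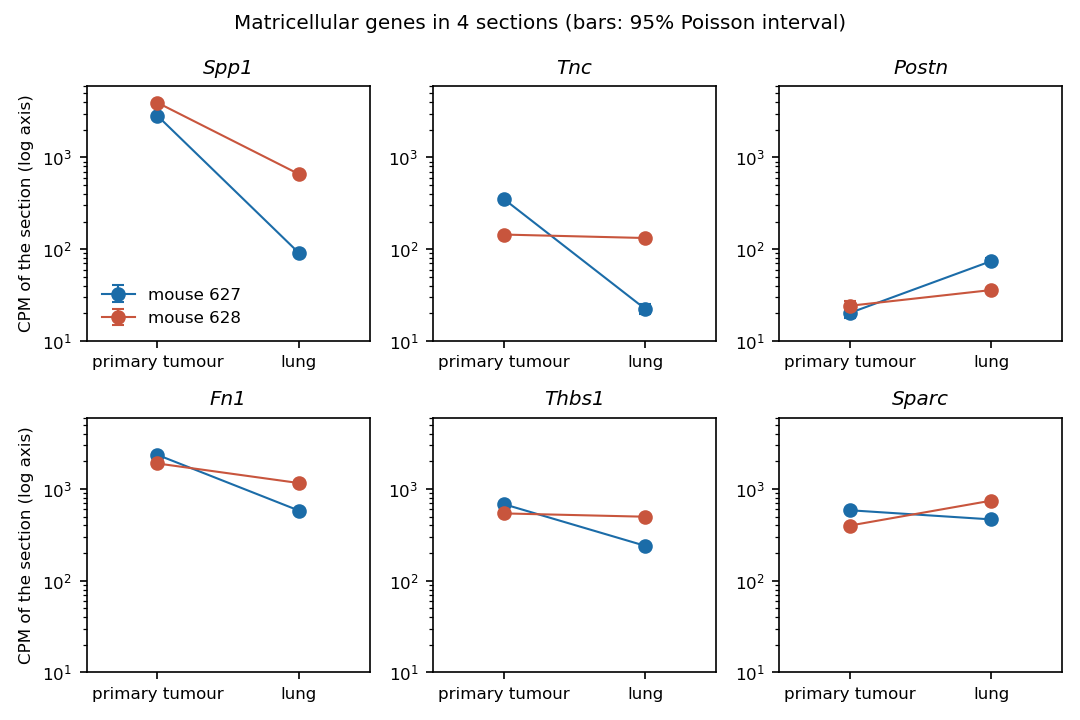
CPM of each gene (log axis) in the primary tumour and lung section of Mouse_627 (blue) and Mouse_628 (red), with lines joining the sections of a mouse and bars for the 95% Poisson interval. Spp1 lies at 2846 and 3950 CPM in the tumours and at 91.1 and 658 CPM in the lungs, and Postn has the opposite order.

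The sequences upstream of Spp1, Tnc and Postn are shown because Spp1 and Tnc had more UMIs in carcinoma-marker-high lung spots of both mice and Postn had fewer. Each is the run of 250 bases before the gene's RefSeq start on the gene's own strand in GRCm38.p6, and capitals mark matches on either strand to TATAAA (the TATA box), TGANTCA (the AP-1 site), CCAAT (the CCAAT box), TGTGGT (a RUNX core) and GGGCGG (the GC box). The windows lie at chr5:104434861-104435110 on the plus strand, chr4:64047016-64047265 on the minus strand and chr3:54360857-54361106 on the plus strand.
Spp1: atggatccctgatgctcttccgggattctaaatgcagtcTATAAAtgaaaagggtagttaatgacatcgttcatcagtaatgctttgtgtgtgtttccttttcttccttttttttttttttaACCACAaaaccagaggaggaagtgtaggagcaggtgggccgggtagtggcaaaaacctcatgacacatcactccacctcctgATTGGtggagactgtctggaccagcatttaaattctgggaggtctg
Tnc: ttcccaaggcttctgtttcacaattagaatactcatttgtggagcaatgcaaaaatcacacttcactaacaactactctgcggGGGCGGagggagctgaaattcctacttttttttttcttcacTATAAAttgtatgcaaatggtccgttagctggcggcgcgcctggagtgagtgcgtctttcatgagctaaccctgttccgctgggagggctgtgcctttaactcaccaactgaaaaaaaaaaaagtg
Postn: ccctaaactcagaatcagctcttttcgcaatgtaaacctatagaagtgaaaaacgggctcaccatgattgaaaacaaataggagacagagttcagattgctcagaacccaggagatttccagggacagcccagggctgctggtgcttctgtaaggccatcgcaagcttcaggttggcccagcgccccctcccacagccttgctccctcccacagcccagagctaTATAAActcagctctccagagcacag
TATAAA was in all 3 windows, with its outermost base 211 bases before the start in Spp1, 126 in Tnc and 26 in Postn, and in 12.4% of the 32851 mouse windows of that length. The Spp1 window also held CCAAT (33.8% of windows) and the RUNX core (14.0%), and the Tnc window held GGGCGG (32.7%). TGANTCA was in none of them and in 6.75% of all windows. RefSeq windows were matched for 4 of the 6 members, and that of Sparc held none of these letters. The RefSeq start used for Sparc is 3103 bases from the gene start placed above, so its window lies inside the gene. For Spp1, Tnc and Postn this distance is at most 7 bases. A match is a run of letters and does not show that a factor binds.

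To set the tissues against each other, the UMIs of each section were summed and tested by edgeR over all genes. Without regard to the mouse, 1139 of 15267 genes were called (7.46%, of which 6.31% of all genes were higher and 1.15% lower in lung), and 0 of the 6 members were among them at an adjusted p under 0.05, while 3536 genes had an unadjusted p under 0.05. Spp1 had a log2 fold change of lung over tumour of -2.98 (SE 0.79, adjusted p = 0.0526 by edgeR) and Postn one of 1.66 (SE 0.47, adjusted p = 0.067). Tnc had a value of -1.51 (SE 0.70, adjusted p = 0.234), and the adjusted p of Fn1, Thbs1 and Sparc was at least 0.248 in edgeR.

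With the mouse as a block, since both sections of a pair come from 1 animal, 1817 genes were called (11.9%), 9.17% of all genes higher and 2.73% lower in lung, and 3 of the 6 members with them. Spp1 fell by 3.48 on the log2 scale from tumour to lung (SE 0.88, adjusted p = 0.00118, edgeR), Tnc fell by 1.74 (SE 0.51, adjusted p = 0.00836) and Postn rose by 1.52 (SE 0.46, adjusted p = 0.0118). The log2 difference of Tnc was -3.98 in Mouse_627 and -0.125 in Mouse_628, and its fitted value ranged from -2.90 to -0.41 over the alternatives. The SE of these fits draws on the dispersion of all genes, so it does not measure the gap between the 2 mice. Same-mouse deviations from the group means correlated at -0.289, so these data do not show the pairing that the block assumes. Over all the alternatives run the adjusted p of Spp1 ranged from 5.5e-07 to 0.691, that of Tnc from 0.000137 to 0.877 and that of Postn from 8.75e-06 to 0.33. DESeq2 called Spp1 (adjusted p = 0.00019) and Postn (adjusted p = 0.0157). It also called more of all genes than either edgeR fit above, as counted in the section on processing. With scaling by library size alone the median of all genes stood at -0.31 on the log2 scale, in place of -0.0046. In bulk sums such as these, fewer cells of a type and less RNA per cell cannot be told apart, and the carcinoma markers moved with the tissues as given above. Neutrophil markers summed to 73753 and 29889 CPM in the lungs of Mouse_627 and Mouse_628 and to 2614 and 11192 CPM in the tumours, and macrophage markers took opposite directions, with 560.4 CPM in the lung and 2172 CPM in the tumour of Mouse_627 and 1134 and 468 CPM in Mouse_628. Endothelial markers summed to 1397 and 703 CPM in the lungs and to 204 and 144 CPM in the tumours. In the same order smooth muscle markers had 412 and 246 CPM against 30.0 and 56.3 CPM, and airway markers 1378 and 787 CPM against 1.70 and 17.4 CPM. The part of these cell types was not tested.

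**Figure D2:**
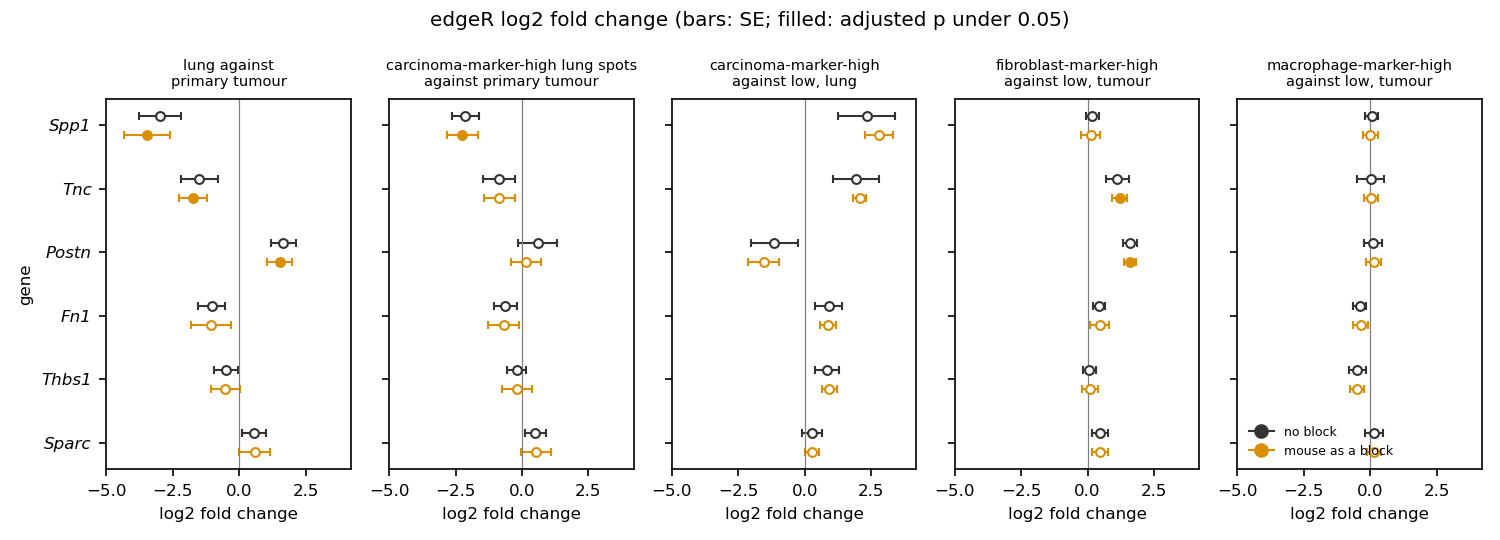
Log2 fold change of each gene in the 5 comparisons by edgeR, without (black) and with (orange) the mouse as a block, with bars for the SE and filled points for an adjusted p under 0.05. Filled points are Spp1, Tnc and Postn in lung against tumour, Spp1 in carcinoma-marker-high lung spots against tumour, and Tnc and Postn in fibroblast-marker-high tumour spots, all with the block.

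Other genes of the pathway were read in the same fit. Of 26 further matricellular genes 21 were tested, and 4 were higher and 0 lower in lung, where 6.31% of all genes were higher and 1.15% lower, with a median log2 fold change of -0.58 beside -0.0046 over all genes. Spock2, a proteoglycan of the Sparc family, rose from 0.517 and 5.97 CPM in the tumours to 147 and 65.1 CPM in the lungs, and Tnxb, a relative of tenascin-C, rose from 0.517 and 3.95 CPM to 38.2 and 16.01 CPM (adjusted p = 0.0115 and 0.0272 by edgeR). Both values of the tumour of Mouse_628 lie below its 7.86 CPM per receptor gene. Among 17 receptors of these proteins 3 rose and 0 fell, beside the same 6.31% and 1.15%, with a median of 0.17.

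Cd36, a receptor of thrombospondin-1 found on lung capillaries and macrophages, rose from 17.9 and 17.2 CPM in the tumours to 950 and 456 CPM in the lungs (log2 fold change 5.68, SE 0.61, adjusted p = 0.0032 by edgeR). Itga4, an integrin subunit that binds fibronectin and osteopontin, rose from 17.8 and 20.8 CPM to 129 and 56.6 CPM (adjusted p = 0.0162, edgeR). Of 12 genes of the TGF-beta pathway, which thrombospondin-1 acts on, 0 rose and 2 fell, beside 6.31% of all genes higher and 1.15% lower. These were Ltbp2 and Ltbp1, of which Ltbp1 holds TGF-beta latent in the matrix. Ltbp1 was at 275 and 227 CPM in the tumours against 27.7 and 85.8 CPM in the lungs. With the mouse as a block, 5 of the 21 matricellular genes rose and 3 fell, 4 of the 17 receptors rose and 1 fell, and 3 of the 12 TGF-beta genes fell, beside 9.17% of all genes higher and 2.73% lower.

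Within the sections the members were spread in different ways. The median spot held 2346 CPM of Spp1 in the primary tumour of Mouse_627 and 2115 CPM in the primary tumour of Mouse_628, and 0 and 347 CPM in the lungs of Mouse_627 and Mouse_628. At the 90th percentile lung spots reached 241 CPM in Mouse_627 and 1189 CPM in Mouse_628, still below the median tumour spot. When every spot was thinned to 1000 UMIs, Spp1 had a UMI in 88.5% and 85.6% of tumour spots and in 6.82% and 34.4% of lung spots of Mouse_627 and Mouse_628. Thinning left out 886 spots of the primary tumour of Mouse_627 and at most 56 of any other section.

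Postn was seen in 2.18% and 2.81% of thinned tumour spots and in 6.76% and 4.00% of thinned lung spots of Mouse_627 and Mouse_628. A receptor gene had 1.88 UMIs per 100 thinned spots in the primary tumour of Mouse_628 and at most 0.127 in the other sections, so that the Postn share of the primary tumour of Mouse_628 was near this background. Moran's I, which is near 0 where neighbouring spots are unrelated, was between 0.011 and 0.057 for Postn in all 4 sections. For Spp1 it was 0.602 in the lung of Mouse_628, the highest value of any member, 0.359 in the lung of Mouse_627, and 0.190 and 0.304 in the primary tumours of Mouse_627 and Mouse_628. Part of the spread of Spp1 went with spot depth, with a Spearman correlation across spots of 0.546 in the lung of Mouse_628 and 0.125 in the lung of Mouse_627. Spots of a section share their library and are not replicates.

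To relate the members to metastatic tissue, lung spots were ranked by the share of UMIs on the 5 carcinoma markers in a spot and its neighbours, and the top 10% (170 and 278 spots of Mouse_627 and Mouse_628) was set against the bottom 50% (848 and 1390 spots). No member is in the marker list. Spp1 was at 458 CPM in high spots and 34.2 CPM in low spots of the lung of Mouse_627, and at 1107 and 248 CPM in the lung of Mouse_628. High spots therefore held 13.4 times the level of low spots in Mouse_627 and 4.47 times in Mouse_628.

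Tnc was at 75.02 CPM in high and 12.8 CPM in low spots of the lung of Mouse_627, and at 203 and 53.3 CPM in the lung of Mouse_628, ratios of 5.84 and 3.80. Thbs1 was 2.57 and 1.69 times higher in high spots of Mouse_627 and Mouse_628, Fn1 1.85 and 2.21 times and Sparc 1.34 and 1.34 times. Postn alone among the 6 was lower in high spots of both mice, at 58.9 against 77.7 CPM in the lung of Mouse_627 and at 10.3 against 55.0 CPM in the lung of Mouse_628. Low spots thus held 1.32 times (95% counting interval 1.02 to 1.73) and 5.32 times (4.00 to 7.21) as much Postn as high spots.

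**Figure D3:**
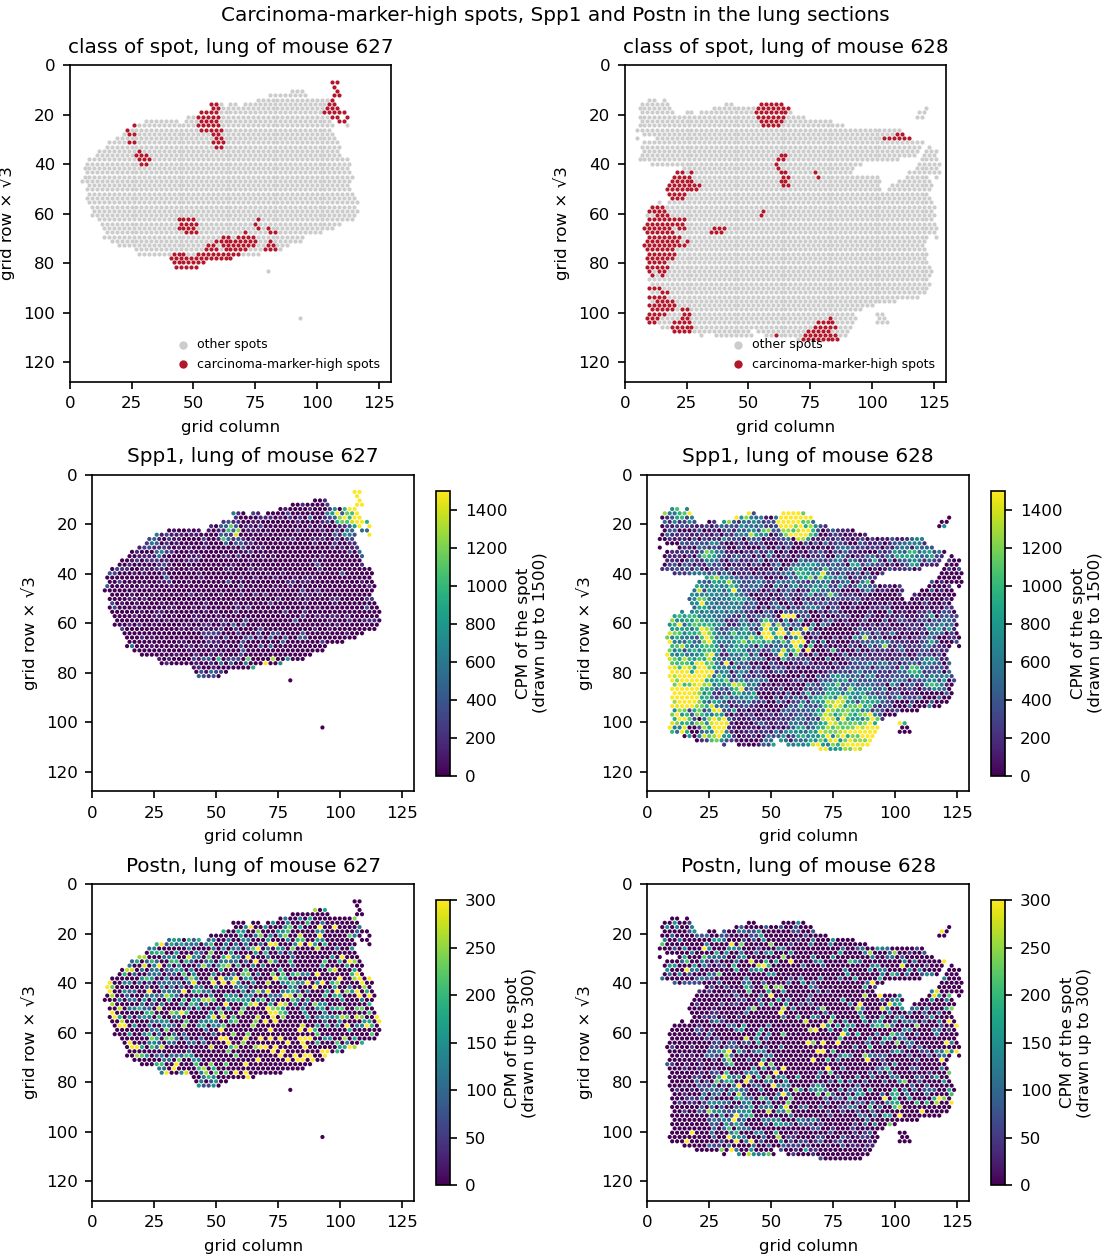
Lung sections of Mouse_627 (left) and Mouse_628 (right) on the spot grid, with carcinoma-marker-high spots in red (top) and the CPM of Spp1 (middle) and Postn (bottom) in each spot as colour. Spp1 is concentrated in and around high spots, and Postn is scattered over the rest of the lung and sparse in the high spots of Mouse_628 (10.3 CPM).

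These differences did not pass the test across 2 mice, which does not show that the classes were alike. edgeR called 0 of 12744 genes without the block (0%), 1220 genes had an unadjusted p under 0.05, and with the block (3520 genes at an unadjusted p under 0.05) or in DESeq2 (1633) the count was also 0. Log2 fold changes were 2.33 for Spp1 (SE 1.06), 1.93 for Tnc (SE 0.85), -1.14 for Postn (SE 0.88), 0.90 for Fn1 (SE 0.50), 0.85 for Thbs1 (SE 0.44) and 0.28 for Sparc (SE 0.37), with adjusted p-values from 0.404 to 0.66 by edgeR. The classes did not mean the same in both lungs, since a high spot had at least 194 CPM of the markers in Mouse_627 and at least 1250 in Mouse_628, where low spots reached 377.

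With common limits for both lungs, chosen after seeing the data, high spots had at least 200 CPM and low spots at most 50 CPM of the markers. edgeR then called 1683 of 12499 genes, among them Spp1 (log2 fold change 3.18, SE 0.49, adjusted p = 0.0127), Tnc (2.62, SE 0.40, adjusted p = 0.0127) and Thbs1 (1.05, SE 0.26, adjusted p = 0.0343). Under these limits the lung of Mouse_628 kept 108 low spots and 1999 high spots, and the lung of Mouse_627 kept 1071 and 164.

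Other cell types moved with the classes. In the lung of Mouse_627 the 6 neutrophil markers, with none at 0, summed to 44275 CPM in high and 78974 CPM in low spots, and in the lung of Mouse_628 to 3812 and 58107 CPM. The 6 alveolar markers had 10208 and 13296 CPM in the lung of Mouse_627 and 1586 and 11607 CPM in the lung of Mouse_628. The 7 macrophage markers had 1077 CPM in high and 482 CPM in low spots of the lung of Mouse_627 and 1395 and 729 CPM in the lung of Mouse_628, and the 6 fibroblast markers 1275 and 710 CPM and 1945 and 1475 CPM. None of these markers was at 0 in high spots. The median depth of high and low spots was 6223 and 6749.5 UMIs in the lung of Mouse_627 and 17522 and 7573 UMIs in the lung of Mouse_628. The part of these cell types and of depth in the levels of the members was not tested.

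High spots lay in patches, and the members were uneven between them. Patches of 10 or more neighbouring spots numbered 4 in the lung of Mouse_627 and 7 in the lung of Mouse_628, with 27 and 19 high spots in smaller ones. A patch of 22 spots in the lung of Mouse_627 held 2116 CPM of Spp1 and 3274 CPM of Fn1, whereas the remaining 148 high spots held 230 CPM and 623 CPM. The 22 spots thus carried 287 of the 513 Spp1 UMIs of all high spots of that lung. Alveolar markers summed to 361 CPM in this patch and to 11565 CPM in the other high spots, and carcinoma markers to 413 and 352 CPM. The same patch held 22.1 CPM of Tnc, from 3 UMIs (95% counting interval 4.56 to 64.6), against 82.3 CPM elsewhere, so that its Spp1 and Tnc levels went opposite ways. Macrophage markers stood at 2418 and 892 CPM and fibroblast markers at 3450 and 976 CPM in the patch and the other high spots.

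Without this patch, Spp1 in the lung of Mouse_627 was 6.71 times and Fn1 1.22 times the level of low spots, in place of 13.4 and 1.85 times, and Tnc was 6.41 times. In the lung of Mouse_628 the 7 patches held between 578 and 1662 CPM of Spp1, between 14.6 and 384 CPM of Tnc and between 388 and 2993 CPM of Fn1, at carcinoma marker sums between 1327 and 2005 CPM. The patch of 34 spots with the most Spp1 (1662 CPM) and the highest marker sum had 423 CPM of Fn1, less than the 827 CPM of low spots. The highest Fn1 level was in a patch of 33 spots where hypoxia markers summed to 3329 CPM, against 932 CPM in the other high spots. A patch of 30 spots with 2647 CPM of Fn1 had 568 CPM of hypoxia markers, against 1199 CPM in its other high spots. Fibroblast markers summed to 2897 and 2784 CPM in these patches, and to 3753 CPM in a patch of 14 spots with 388 CPM of Fn1. The part of these markers was not tested.

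Around the high spots the levels of most members were lower with distance, counted in steps of the spot grid. In the lung of Mouse_627 Spp1 was at 458 CPM in high spots, 156 CPM at 1 step, 92.4 CPM at 2 steps, 58.4 CPM at 3 to 4 steps, 30.0 CPM at 5 to 8 steps and 29.5 CPM beyond 8 steps. Most Spp1 UMIs of these high spots came from the patch singled out above, and the remaining high spots had a lower level. In the lung of Mouse_628 it was at 1107, 1070, 886, 748, 427 and 295 CPM over the same steps, a flatter course in which the carcinoma markers declined from 1475 to 281 CPM. The markers of the lung of Mouse_627 declined from 359 to 24.8 CPM.

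Tnc declined from 75.02 to 8.94 CPM in the lung of Mouse_627 and from 203 to 63.3 CPM in the lung of Mouse_628, where it was highest at 1 step (224 CPM). Fn1 declined at every step in both lungs, from 944 to 472 CPM and from 1826 to 756 CPM. Thbs1 declined at every step in the lung of Mouse_627, from 463 to 157 CPM, and held at 615, 603 and 622 CPM up to 2 steps in the lung of Mouse_628 before it reached 338 CPM. Sparc in the lung of Mouse_628 stayed between 834 and 867 CPM up to 3 to 4 steps and was at 569 CPM beyond 8 steps. Postn was higher farther away in the lung of Mouse_628, from 10.3 through 22.0, 29.0 and 38.6 to 49.9 CPM at 5 to 8 steps and 45.9 CPM beyond 8 steps, while in the lung of Mouse_627 it was between 58.9 and 79.2 CPM with overlapping intervals. The order by steps is a description, since the steps are within 2 sections.

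**Figure D4:**
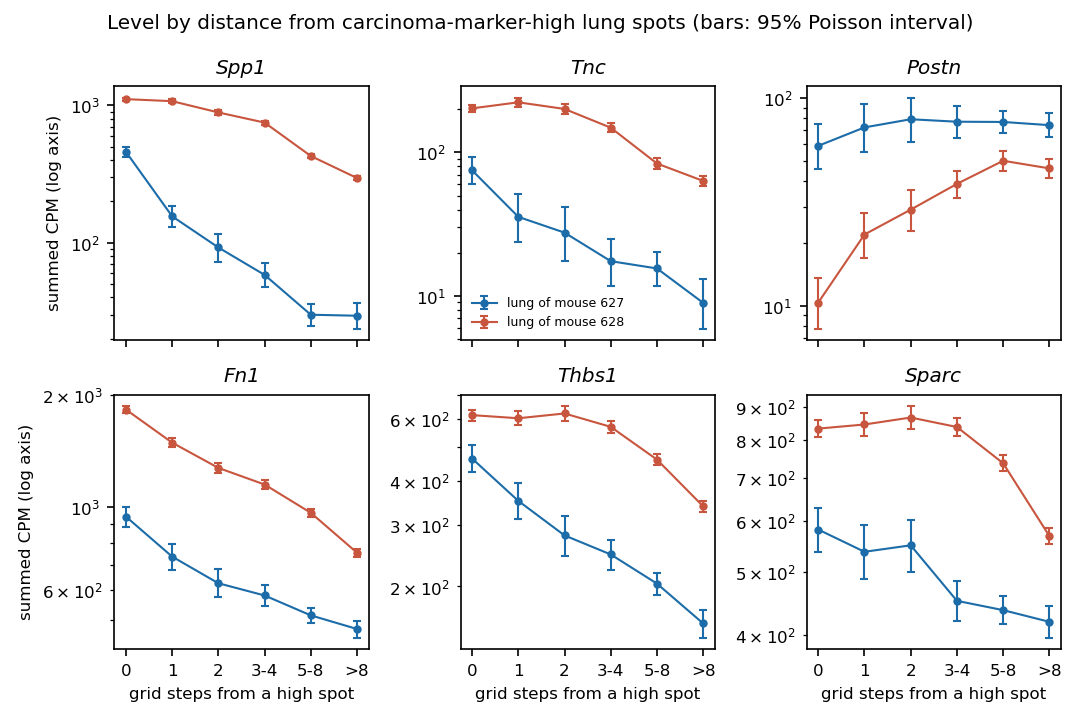
Summed CPM of each gene (log axes that differ between panels) by grid steps from the nearest carcinoma-marker-high spot in the lung of Mouse_627 (blue) and Mouse_628 (red), with bars for the 95% Poisson interval. Spp1 declines from 458 to 29.5 CPM and from 1107 to 295 CPM, and Postn climbs from 10.3 to 49.9 CPM at 5 to 8 steps in the lung of Mouse_628 and is at 45.9 CPM beyond.

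High lung spots were then set against the whole primary tumours, which uses the tumour sums of the tissue comparison and the high spots of the comparison within lung. Spp1 remained below the tumours, at 458 and 1107 CPM against 2846 and 3950 CPM, a 6.21-fold gap in Mouse_627 and a 3.57-fold gap in Mouse_628. In Mouse_627 Fn1 was at 944 CPM in high spots and 2350 CPM in the tumour, Thbs1 at 463 and 683 CPM and Tnc at 75.02 and 354 CPM. In Mouse_628 the same genes were at 1826 and 1894 CPM, 615 and 541 CPM, and 203 and 144 CPM, so that Thbs1 and Tnc took opposite directions in the mice. Sparc was at 582 and 585 CPM in Mouse_627 and at 834 and 398 CPM in Mouse_628. Postn took opposite directions, at 58.9 CPM in high spots and 20.2 CPM in the tumour of Mouse_627 and at 10.3 and 24.2 CPM in Mouse_628. Carcinoma markers summed to 359 and 1475 CPM in the high spots of Mouse_627 and Mouse_628 and to 1579 and 1679 CPM in the tumours. Alveolar markers had 10208 and 1586 CPM in the high spots against 11.5 and 40.9 CPM in the tumours, and neutrophil markers 44275 and 3812 CPM against 2614 and 11192 CPM. The part of these cell types was not tested.

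edgeR called 3 of 13799 genes (0.0217%) and 0 members, and 1331 genes had an unadjusted p under 0.05. Spp1 had a log2 fold change of -2.13 (SE 0.50, adjusted p = 0.384 by edgeR). With the mouse as a block 315 genes (2.28%, 1.39% higher and 0.891% lower) and 1 of the 6 members were called, Spp1 at -2.25 (SE 0.58, adjusted p = 0.0128, edgeR), and DESeq2 gave Spp1 an adjusted p of 0.000515. Same-mouse deviations correlated at -0.329 here, so the pairing did not show in these sums either. No gene of the 3 pathway lists was called without the block, with 19, 17 and 12 genes tested, and with it 4, 1 and 0 were, among them Spock2 (log2 fold change 4.13, adjusted p = 0.000403, edgeR) and Cd36 (3.75, adjusted p = 1.3e-05). The largest differences in 1 direction in both mice were those of Tnr and Spock2, of Cd36 and Sdc4, and of Ltbp2 and Ltbp1. Tnr, a tenascin of the nervous system, was at 2.29 and 7.62 CPM in the tumours and at 0 and 0.199 CPM in high lung spots (0 and 1 UMIs), and the 7.62 CPM lies below the 7.86 CPM per receptor gene of that tumour. Sdc4, a syndecan that binds fibronectin, was at 510 and 968 CPM in high lung spots and at 1461 and 1919 CPM in the tumours.

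In the comparison of high with low lung spots 0 of 16, 17 and 12 genes of these lists were called. Their medians were -0.42, 0.10 and 0.69 on the log2 scale, beside 0.017 over all genes and 0.87 over the members. Among the largest differences was that of Thbs2, a relative of Thbs1, at 9.82 against 3.25 CPM in the lung of Mouse_627 and 38.2 against 5.79 CPM in the lung of Mouse_628. Dmp1, an acidic bone protein of the osteopontin family, was at 16.5 against 1.03 CPM in the lung of Mouse_628 (83 and 11 UMIs), and in the lung of Mouse_627 it had 4 UMIs in high and 1 UMI in low spots, a ratio of 20.9 (95% counting interval 2.06 to 1027). Itga8 was lower in high spots, at 22.3 against 55.3 CPM and 2.19 against 29.8 CPM, and the rule also named Ltbp1 and Cd36.

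Within the primary tumours, spots rich in fibroblast markers (Col1a1, Col1a2, Col3a1, Dcn, Lum and Pdgfra) were compared with spots poor in them, again the top 10% against the bottom 50%. Postn was at 38.1 CPM in high and 14.5 CPM in low spots of the primary tumour of Mouse_627 and at 46.7 and 15.3 CPM in the primary tumour of Mouse_628, ratios of 2.63 and 3.06. Tnc was at 487 and 245 CPM in Mouse_627 and at 259 and 106 CPM in Mouse_628, ratios of 1.98 and 2.43. For both genes the high spots lay above the low spots in both tumours. A receptor gene averaged 9.50 CPM in the low and 3.48 CPM in the high spots of Mouse_628, so part of the 15.3 CPM of Postn there can be background, and 0.827 and 0.427 CPM in those of Mouse_627. Fn1 was 1.19 and 1.40 times and Sparc 1.37 and 1.27 times higher, whereas Spp1 took opposite directions in the 2 tumours and Thbs1 differed by a ratio of 0.987 and 1.01.

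edgeR called 0 of 14352 genes without the block (0%), with 93 genes at an unadjusted p under 0.05, and DESeq2 called 1. With the mouse as a block 87 genes (0.606%, 0.251% higher and 0.355% lower) and 2 of the 6 members were called, Postn with a log2 fold change of 1.59 (SE 0.23, adjusted p = 1.49e-08, edgeR) and Tnc with 1.21 (SE 0.29, adjusted p = 0.00707, edgeR). Without the block their values were 1.60 (SE 0.25, adjusted p = 0.697, edgeR) and 1.12 (SE 0.43, adjusted p = 1). Thbs2 was at 182 against 56.6 CPM in the primary tumour of Mouse_627 and at 64.7 against 9.76 CPM in the primary tumour of Mouse_628 (adjusted p = 5.68e-13 with the block, edgeR), and Fstl1, a secreted protein related to Sparc, at 24.1 against 9.60 CPM and 16.5 against 8.06 CPM (adjusted p = 0.00813), the 2 further matricellular genes called among 19. The lower values of both genes in Mouse_628 stand beside 9.50 CPM per receptor gene. Differences that were not called, with or without the block, were those of Tnr (1.12 against 3.54 CPM and 0.944 against 9.55 CPM), of the integrin subunits Itga8 (5.61 against 12.3 CPM and 2.83 against 11.03 CPM) and Itga5 (91.4 against 69.2 CPM and 102 against 51.1 CPM), and of the TGF-beta receptor Tgfbr1 (254 against 202 CPM and 173 against 116 CPM). Tnr and Itga8 in Mouse_628 stand beside 3.48 CPM per receptor gene in high and 9.50 CPM in low spots. Part of their values and difference there can thus be background. The median depth was 7263 UMIs in high and 1296 UMIs in low spots of the primary tumour of Mouse_627 and 2284 and 1802.5 UMIs in the primary tumour of Mouse_628, and neutrophil markers summed to 1636 and 2878 CPM and to 6935 and 14105 CPM in these spots. Smooth muscle markers summed to 42.04 CPM in high and 22.7 CPM in low spots of Mouse_627 and to 95.8 and 44.3 CPM in Mouse_628. The part of depth and of these cell types was not tested.

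Spots rich in macrophage markers, another known source of osteopontin, fibronectin and thrombospondin-1, showed no such pattern in the tumours. Spp1 was at 2593 CPM in high and 3135 CPM in low spots of the primary tumour of Mouse_627 and at 4485 and 3710 CPM in the primary tumour of Mouse_628, opposite directions of similar size. Thbs1 was 1.21 and 1.70 times and Fn1 1.40 and 1.19 times higher in macrophage-low spots. In high and low spots neutrophil markers summed to 1463 and 3345 CPM in the primary tumour of Mouse_627 and to 4665 and 14603 CPM in the primary tumour of Mouse_628, and keratinocyte markers to 434 and 33.7 CPM and to 32.8 and 49.1 CPM. Carcinoma markers took opposite directions in the mice as Spp1 did, at 1231 and 1833 CPM in Mouse_627 and 2172 and 1548 CPM in Mouse_628. The part of these cell types was not tested. edgeR called 0 of 15846 genes without the block (0%), 220 were at an unadjusted p under 0.05, and DESeq2 called 1. With the block 172 genes (1.09%, 0.713% higher and 0.372% lower) and 0 members were called. The receptors Itga9 (46.5 against 13.9 CPM and 22.2 against 10.2 CPM) and Stab1, a scavenger receptor that takes up Sparc (170 against 71.2 CPM and 92.7 against 32.6 CPM), were called with the block by edgeR at adjusted p = 0.000147 and 6.71e-05, where the low spots of Mouse_628 had 8.17 CPM per receptor gene. Not called were Mepe (0.511 against 1.66 CPM and 5.55 against 11.9 CPM), Ccn3 (5.11 against 5.59 CPM and 6.11 against 15.7 CPM), Tgfb3 (85.3 against 60.8 CPM and 97.2 against 45.5 CPM) and Tgfb2 (12.8 against 13.7 CPM and 10.00 against 19.8 CPM). A receptor gene averaged 0.277 CPM in high and 1.28 CPM in low spots of Mouse_627, and 4.38 and 8.17 CPM in those of Mouse_628. Part of the values and differences of Mepe, Ccn3 and Tgfb2 can thus be background.

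Spots were also ranked by each of 16 marker lists. In the lungs the same list gave the highest ratio in both mice for 2 members, the macrophage list for Sparc (1.39 and 1.65 times) and the alveolar list for Postn (1.20 and 3.18 times). For Spp1 the highest ratio was that of the proliferation list in Mouse_627 (13.6 times, beside 13.4 for carcinoma) and of the carcinoma list in Mouse_628 (4.47 times). Tnc and Thbs1 had theirs with the carcinoma list in Mouse_627 (5.84 and 2.57 times) and with the macrophage list in Mouse_628 (4.81 and 2.19 times), and Fn1 with the macrophage list in Mouse_627 (1.99 times) and the hypoxia list in Mouse_628 (2.37 times). Neutrophil-high lung spots held less of all members but Postn, with Spp1 at 25.1 against 161 CPM in the lung of Mouse_627 and at 143 against 887 CPM in the lung of Mouse_628. Macrophage-high lung spots held 12.7 and 3.79 times the Spp1 and 5.32 and 4.81 times the Tnc of macrophage-low ones. In these spots carcinoma markers summed to 251 against 33.9 CPM in the lung of Mouse_627 and to 1073 against 278 CPM in the lung of Mouse_628, so the parts of the 2 lists cannot be told apart. Neutrophil markers summed to 41379 against 81906 CPM and to 7253 against 56146 CPM in the same classes, and alveolar markers to 9012 against 13097 CPM and to 3911 against 9923 CPM. Fibroblast markers summed to 2287 against 512 CPM and to 2007 against 1482 CPM, and proliferation markers to 590.0 against 189 CPM and to 1549 against 538 CPM. The part of all these was not tested.

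Fibroblast-high lung spots held 8.57 times the Spp1 of low ones in Mouse_627 and 0.996 times in Mouse_628, and Postn was lower there in both (0.746 and 0.637 times), the reverse of its order in the tumours. Other markers moved with these lung classes. In fibroblast-high and low spots, cardiac markers summed to 1073 and 76.8 CPM in the lung of Mouse_627 and to 3075 and 99.8 CPM in the lung of Mouse_628, smooth muscle markers to 1819 and 117 CPM and to 661 and 139 CPM, airway markers to 3089 and 611 CPM and to 2403 and 656 CPM, and alveolar markers to 8054 and 12921 CPM and to 4304 and 8525 CPM. Macrophage markers summed to 1049 and 451 CPM in Mouse_627 and to 1064 and 969 CPM in Mouse_628, and carcinoma markers to 111 and 42.4 CPM and to 670 and 543 CPM. Of these markers 1 of the 5 cardiac ones was at 0 in high spots of the lung of Mouse_627, and their part was not tested.

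An edgeR test of the difference between the tissues, added after seeing the data, called 1319 of 15533 genes for the fibroblast classes (8.49%), 1064 of 17962 for the macrophage classes (5.92%) and 280 of 14976 for the carcinoma classes (1.87%). Of the 6 members 2 were called for the fibroblast classes (Postn and Spp1), 3 for the macrophage classes (Spp1, Tnc and Postn) and 0 for the carcinoma classes, where Tnc had an adjusted p of 0.0537 by edgeR. Smooth muscle-high tumour spots had more Postn (2.24 and 1.31 times) and Thbs1 (1.34 and 1.55 times) in both mice.

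**Figure D5:**
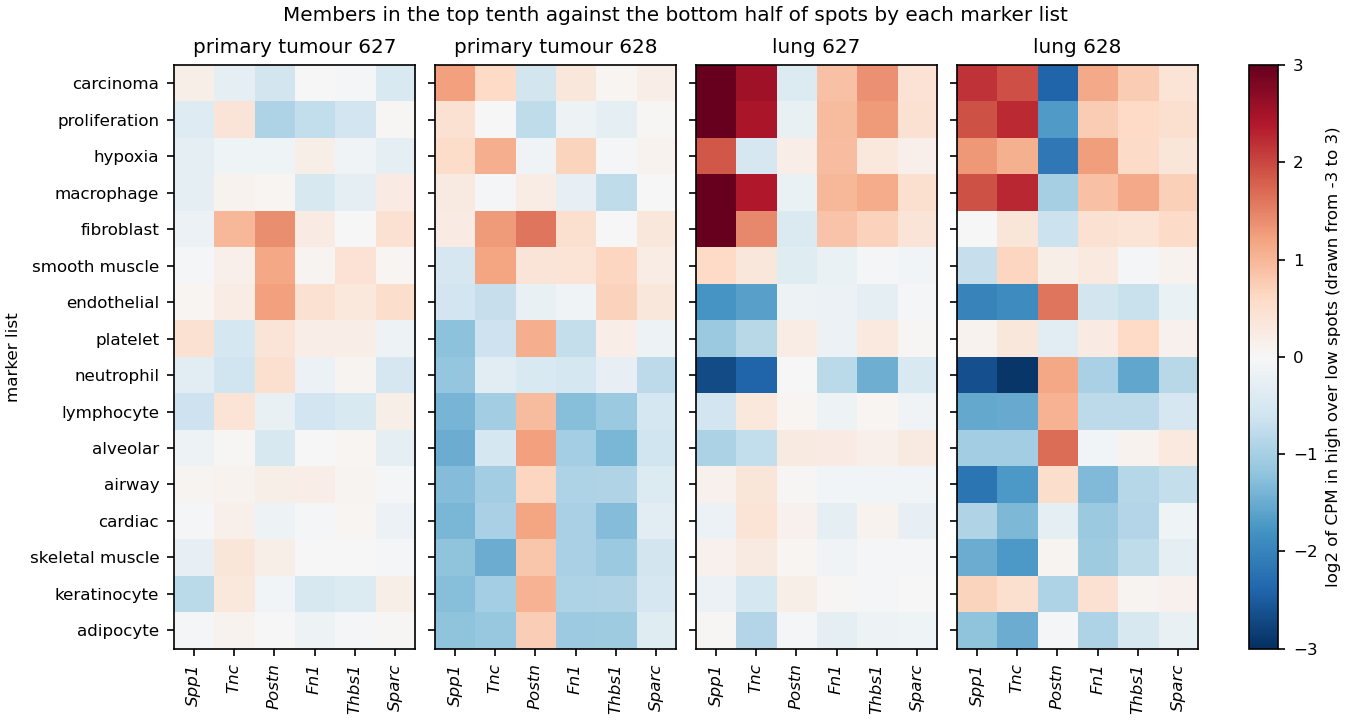
Log2 ratio of CPM in the top 10% over the bottom 50% of spots by each of 16 marker lists (rows) for the 6 genes (columns) in each section, red for higher and blue for lower. In the lungs Spp1 and Tnc are red for carcinoma and macrophage and blue for neutrophil lists, and Postn is red for fibroblasts only in the tumours.

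Seen from the members, spots were ranked by a member's share of UMIs over a spot and its neighbours, as with the marker lists. The top 10%, here called richest, can thus include spots with no UMI of the member. For Spp1 the richest spots held 60.7% of its UMIs in the lung of Mouse_627 and 40.8% in the lung of Mouse_628. The same spots held 9.94% and 17.4% of all UMIs. Of these spots 52.4% and 41.0% were carcinoma-marker-high and 50.0% and 35.6% macrophage-marker-high, where 10% of all spots have each label, and none was neutrophil-marker-high. They were proliferation-marker-high in 63.5% and 20.1% and hypoxia-marker-high in 17.1% and 35.3%. The Postn-richest spots of the lung of Mouse_628 were carcinoma-marker-high in 0.36% and alveolar-marker-high in 30.9%, and those of the lung of Mouse_627 in 6.47% and 16.5%. In the primary tumour of Mouse_628 the Spp1-richest spots were carcinoma-marker-high in 53.6%, and in the primary tumour of Mouse_627 in 7.23%. The median depth of carcinoma-marker-high and low spots was 11804 and 1483 UMIs in the tumour of Mouse_628, but 1018 and 2266 UMIs in that of Mouse_627. Spp1 correlated with spot depth at 0.512 and 0.116 in the tumours of Mouse_628 and Mouse_627. The part of depth was not tested.

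Across spots the closest pair of members was Spp1 and Tnc in the lung of Mouse_628, with a Spearman correlation of 0.44 over 2780 spots, followed by Fn1 and Thbs1 in that section (0.39). In the primary tumour of Mouse_627 the correlation of Spp1 with Tnc was -0.028, and Postn correlated with no member above 0.18 in any section. Among 1470 genes with at least 0.5 UMIs per spot in every section, Ctsl, a lysosomal protease gene, had the highest mean correlation over the 4 sections with Spp1 (0.38, from 0.082 to 0.70) and with Tnc (0.30), followed by Pabpc1 and Eef1a1 for Spp1 and by Tubb6 and Hist1h2bj for Tnc. Thbs1 led for Fn1 (0.24), followed by Spp1 and Ctsl, and Fn1 led for Thbs1, followed by Ctsl and Gja1. Col1a1 led for Sparc (0.20), followed by Ctsl and Col4a1, and for Postn the highest means were 0.112 (Tax1bp1 and Ctla2a) and 0.110 (Rnase4). All these values share the depth of the spots and are weak in most sections.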

How the data were processed

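The deposited UMI counts per gene and spot had been made by the authors with Space Ranger 2.0.0 on mm10 from the mouse probe kit, per the labels and the study's methods, for spots under tissue, without pooling sections. The values are raw counts, and no value was normalised before deposit. Members and marker lists were chosen with earlier results of these data known. Spots with over 200 genes were kept, and UMIs were summed per section, or per class of spots (top 10% and bottom 50% by the share of a marker list's UMIs over a spot and its neighbours). CPM carry exact 95% Poisson intervals, which cover counting error only, and spots are not replicates. Each section is 1 library of 1 animal, so every group has 2 samples, for which an exact permutation test could give no p below 0.3333.

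Sums were tested with edgeR 4.0.16 in R 4.3.3 (quasi-likelihood, TMM, filterByExpr, Benjamini-Hochberg adjustment over all genes, threshold 0.05), with DESeq2 1.42.0 as an alternative, and the tests were first tried on simulated data. Lung and primary tumour sections of the same number come from the same mouse, which pairs them. Deviations from the group means of same-mouse samples correlated at -0.289 for lung against tumour, -0.329 for high lung spots against tumour, 0.533 within lung, and 0.840 and 0.825 for the fibroblast and macrophage classes. For the shares of spots with a UMI, each spot was thinned to 1000 UMIs. Moran's I was computed on log2 of CPM over 100, plus 1.

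Besides the members, and apart from a gene that is not reported here, the text names from each list and comparison up to 2 called genes with the largest rise and 2 with the largest fall, or, where none was called, the 2 largest differences of one direction in both mice, and the 3 genes most like each member across spots. Genes called only with the block, and the patch of 22 spots, were chosen after their values were seen. The outlines of metastatic foci were not used here. Of the spot barcodes, 1341 occur in all 4 sections, as grid positions shared by slides. Alternatives covered the mouse block, DESeq2, no TMM, no filter, over 500 genes per spot, other class limits and each sample left out. Python 3.11.15, numpy 2.4.6, scipy 1.17.1 and pandas 2.3.3 were used.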

Additional observations from a re-analysis of the deposited data

Results flagged for a closer look

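In 5 cases the effect of a class of spots differed between lung and primary tumour in an edgeR test of the difference itself, which was added after seeing the data and has 2 mice. The values are log2 differences of lung minus primary tumour. Between fibroblast-marker-high and low spots, Postn differed by -2.27 (SE 0.31, adjusted p = 1.96e-10, edgeR), with high spots above low ones in 2 of 2 tumours and below them in 2 of 2 lungs. In high and low spots cardiac markers summed to 1073 and 76.8 CPM in the lung of Mouse_627 and to 3075 and 99.8 CPM in the lung of Mouse_628, against 27.5 and 32.5 CPM and 40.6 and 52.6 CPM in the tumours. Smooth muscle markers of the lungs summed to 1819 and 117 CPM and to 661 and 139 CPM, airway markers to 3089 and 611 CPM and to 2403 and 656 CPM, and alveolar markers to 8054 and 12921 CPM and to 4304 and 8525 CPM. Their part was not tested. Spp1 differed by 1.19 (SE 0.36, adjusted p = 0.017), and this rested on the lung of Mouse_627, where the log2 ratio was 3.10 against -0.0055 in the lung of Mouse_628.

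Between macrophage-marker-high and low spots, Spp1 differed by 2.23 (SE 0.52, adjusted p = 0.0126, edgeR) and Tnc by 1.79 (SE 0.36, adjusted p = 0.00532), with log2 ratios from 1.92 to 3.67 in the lungs and from -0.27 to 0.27 in the tumours. Postn differed by -1.27 (SE 0.39, adjusted p = 0.0486, edgeR), with log2 ratios of 0.059 and 0.22 in the tumours and of -0.21 and -0.99 in the lungs of Mouse_627 and Mouse_628, so that the gap was smaller in Mouse_627. In the tumour of Mouse_628 a receptor gene averaged 4.38 CPM in high and 8.17 CPM in low spots, beside 20.0 and 17.2 CPM of Postn. In macrophage-high and low spots carcinoma markers summed to 251 and 33.9 CPM in the lung of Mouse_627 and to 1073 and 278 CPM in the lung of Mouse_628. Neutrophil markers summed to 41379 and 81906 CPM and to 7253 and 56146 CPM, and alveolar markers to 9012 and 13097 CPM and to 3911 and 9923 CPM. Fibroblast markers had 2287 and 512 CPM in Mouse_627 and 2007 and 1482 CPM in Mouse_628, and proliferation markers 590.0 and 189 CPM and 1549 and 538 CPM. Cardiac markers had 945 and 240 CPM in Mouse_627 and 89.1 and 711 CPM in Mouse_628, and smooth muscle markers 1167 and 202 CPM and 205 and 300.3 CPM. The part of these cell types was not tested.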

How the results depend on the processing

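Over 536 comparisons of a value with an alternative, 412 kept direction and side of the threshold or stayed within the spread, 68 moved, 32 newly passed the threshold and 24 changed sign; the causes were not tested. As the edgeR fit of the report without the block called no member in these comparisons, no member could lose a call. With the mouse as a replicate block, which pairs the samples, calls numbered 1817 (3 members) for lung against tumour, 315 (1) for high lung spots against tumour, 87 (2) for the fibroblast and 172 for the macrophage classes, where Spp1 was -0.0024; the block changed no other call of a member. Crossing the pairs, added after seeing the data because same-mouse samples deviated in opposite ways, gave 2565 (3 members) and 63 calls. DESeq2 called 3711 (2 members), 307 (1), 1 and 1 gene in those 4 comparisons. Without a filter edgeR called 2022 (3 members), 586, 12 (1 member) and 26, and without TMM 328 for lung against tumour, with Thbs1 at -0.018 in the fibroblast classes. Common limits, also added, gave 1657 (1 member) for high lung spots against tumour and 1683 (3) within lung.

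Leaving out 1 sample, with the lone sample assumed to vary like the other group, gave 883 to 6604 calls (0 to 3 members) for lung against tumour, 4 to 1021 (0 to 1) for high lung spots against tumour, 0 to 2775 (0 to 1) within lung, 0 to 267 (0 to 2) for fibroblast and 0 to 434 (0 to 1) for macrophage classes. Members were called for lung against tumour without the tumour of Mouse_627 (Spp1, Postn), the tumour of Mouse_628 (Spp1, Tnc) or the lung of Mouse_628 (all 3), for high lung spots against tumour without those of Mouse_628 (Postn), within lung without the high spots of Mouse_627 (Postn, -2.92), and without the low spots of Mouse_627 in the fibroblast (Postn, Tnc) and macrophage (Tnc) classes. Log2 values that changed sign were Thbs1 from -0.76 to 0.012 (lung against tumour), Tnc from -1.71 to 0.14, Postn from -0.95 to 1.49 and Thbs1 from -0.38 to 0.18 (high lung spots against tumour), Spp1 from -0.18 to 0.55 and Thbs1 from -0.10 to 0.39 (fibroblast), and Spp1 from -0.25 to 0.38, Tnc from -0.91 to 0.99, Postn from -0.075 to 0.52, Fn1 from -0.60 to 0.036 and Sparc from -0.26 to 0.57 (macrophage). In the fibroblast classes Thbs1 was -0.056 for the top 25% against the bottom 25%. In the macrophage classes Spp1 was -0.024 for the same limits, Tnc -0.012 for spots with over 500 genes, and with the marker share of the spot alone 6 genes were called and Spp1, Tnc and Postn were at -0.22, -0.026 and -0.37.

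Depth limits the share of spots with a UMI. Unthinned, in the order tumour and lung of Mouse_627, tumour and lung of Mouse_628, it was 87.3%, 26.9%, 93.0% and 80.4% for Spp1, 53.1%, 11.4%, 27.5% and 46.0% for Tnc, 9.72%, 37.1%, 8.56% and 30.4% for Postn, 84.3%, 91.6%, 83.2% and 96.0% for Fn1, 68.0%, 66.5%, 52.3% and 86.1% for Thbs1, and 63.2%, 87.0%, 52.1% and 94.9% for Sparc.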
